A study of Mus musculus with 120 samples.

Results

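PO, the posterior nucleus of the thalamus, and VB, the ventrobasal complex, are the higher-order and the first-order relay nuclei of the somatosensory system, and both send axons to barrel cortex, the whisker area of the mouse cortex. The transcriptomes of their projection neurons were compared in every library labelled from barrel cortex with DiI, a lipophilic dye that travels back along axons to the cell body. These were 7 PO and 4 VB libraries, 11 of the 120 bulk RNA-seq libraries of a survey of 22 mouse thalamic nuclei. Libraries were taken by nucleus, tracer and injected area as the labels give them, without reference to any measured value.

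All 11 libraries came from wildtype male mice, with recorded ages of 69 to 100 for which no unit is given. Labelled neurons were picked by hand from microdissected and dissociated tissue, so a library is a pool of 51 to 77 neurons in PO and of 14 to 61 neurons in VB. No Cre line or transgene was involved, and the label depends on dye taken up at the injected cortex, so neurons of either nucleus that project elsewhere alone are not sampled. The PO libraries drew on 8 animals and the VB libraries on 7, of which 6 gave neurons to both nuclei. PO library 4 and VB libraries 1, 2 and 3 each pooled 2 animals. For comparison, 9 LP and 5 LGd libraries were used, the higher-order and first-order visual nuclei labelled with DiI from V1, the primary visual cortex; they came from other wildtype males with recorded ages of 64 to 136, whose eyes had also been labelled with CTB, a tracer of retinal axons.

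A first-order nucleus such as VB takes its driving input from the periphery, here whisker and body signals relayed through the brainstem, and passes it to the middle layers of primary sensory cortex. A higher-order nucleus such as PO takes much of its driving input from deep-layer neurons of the cortex itself and sends broader projections that avoid the middle layers of the barrels. Relay neurons of both kinds are glutamatergic, use vesicular glutamate transporters, and switch between burst and tonic firing through T-type calcium channels.

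The table of counts holds 9683962 to 17056107 reads in genes per library. Slc17a6, which encodes the vesicular glutamate transporter of thalamic relay neurons, had 707 to 1059 CPM (median 905) in PO and 1084, 1189, 887 and 826 CPM in VB libraries 1, 2, 3 and 4, where CPM is the count scaled to the TMM-adjusted library size. No library lacked it, and Sst, a marker of neurons of the neighbouring reticular nucleus and zona incerta, had no read in any of the 11. Libraries of PO correlated with one another at a median Pearson r of 0.880 (21 pairs, log2 of CPM plus 1, across genes) and those of VB at 0.884 (6 pairs), against 0.864 between the nuclei (28 pairs). Oligodendrocyte genes were uneven: 12 markers summed to 4.65 to 302 CPM in PO (median 41.1) and to 79.5 to 2178 CPM in VB (exact permutation test over libraries, 2-sided p = 0.0303, adjusted p = 0.131 over 13 library measures). VB library 4 held 14 cells. None of the 12 markers had a log2 fold change above 0 (median -2.81). In the fit of all libraries edgeR called none of them, as did DESeq2, and 3 had an unadjusted p under 0.05; edgeR called 2 of 11 lower in PO with the animal as a block and 1 of 12 without PO library 7. The part of oligodendrocyte RNA or of cell number in the differences below was not tested. Astrocyte markers ran the other way: 2 of the 10 listed, Slc1a2 and Slc4a4, were in the table tested, and they summed to 824 to 1437 CPM in PO and to 274 to 818 CPM in VB, without overlap (exact permutation test, 2-sided p = 0.00606, adjusted p = 0.0788 over the 13 measures). PO libraries 1 to 4 were amplified in one batch and PO libraries 5 to 7 together with all VB libraries in another, so fits that take the batch into account are given beside the results they change. PO of the 2 batches differed in 0 of 16527 genes by edgeR (0%), with 1094 genes at an unadjusted p under 0.05. With 4 against 3 libraries, this cannot show that the batches are alike. Recorded ages were 69 to 86 in PO libraries 1 to 4 and 98 to 100 in PO libraries 5 to 7. Batch and age can therefore not be told apart within PO.

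Between PO and VB, 438 of 16527 genes tested were called, meaning an adjusted p under 0.05 (2.65%; edgeR's quasi-likelihood F test on counts with all 120 libraries in the fit, Benjamini-Hochberg adjustment). Of these, 265 were higher in PO (1.60% of genes tested) and 173 were lower in PO (1.05%). A change of more than 2-fold was seen in 245 of the higher genes and in 141 of the lower ones. Levels did not overlap between the 7 PO and the 4 VB libraries for 273 of the 438 called genes (62.3%), and for 541 of all genes tested (3.27%; 1.71% higher and 1.57% lower in PO). VB had no read for 42 of the genes higher in PO, and PO had none for 23 of the lower ones. Because fewer expressing cells in a pool and less RNA per cell cannot be told apart in bulk libraries, every difference below is one of level per library. Counting the animal as a block in a fit of the 11 libraries gave 249 called genes, of which 191 were among the 438, and the same fit without the block gave 331. Libraries that shared an animal, directly or through another library, formed 1 block. PO libraries 1 and 2 fell with VB library 1, PO 3 and 7 with VB 2, PO 4 with VB 3 and PO 5 with VB 4. PO libraries 3 and 7 have no animal in common with each other. PO library 6 was alone in its block and adds nothing to this contrast. Batch was treated in 3 fits. Against the 3 PO libraries of the batch of VB, with all libraries in the fit, 200 genes were called, and all 438 kept their direction. The 7 libraries of that batch fitted alone gave 104 called genes, and the 11 libraries with batch as a term gave 130. Of the called genes among those named, 39 of 105 lost their call in the first of these fits, 56 of 101 in the second and 59 of 104 in the third, and none changed direction. Below, a value in brackets after a gene that lost its call in an alternative fit is its adjusted p there, and the 3 values given for the batch fits stand in the order above.

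**Figure D1:**
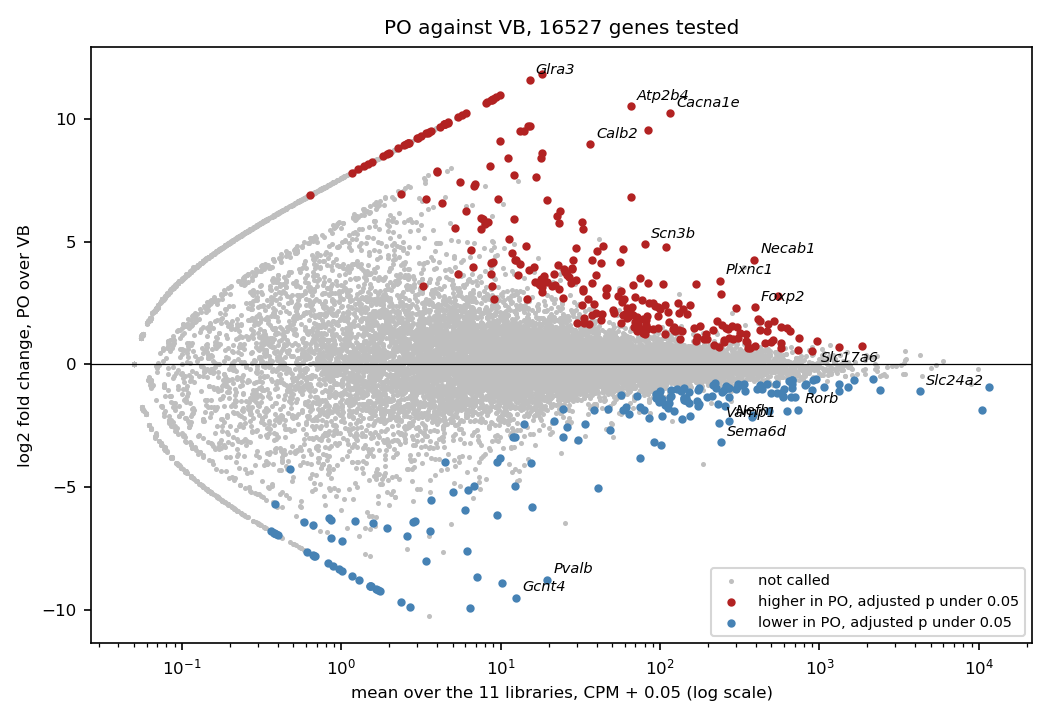
Each point is 1 of 16527 genes, with its mean over the 11 libraries (CPM + 0.05, log scale) across and the log2 fold change of PO over VB up. The 265 genes called higher in PO are red and the 173 called lower in PO are blue, and the curved edges are genes without a read in one nucleus.

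Cacna1e, Foxp2, Rorb and Pvalb serve as markers of the pair, and all 4 differed without overlap: the first 2 were higher in PO and the other two lower. They were chosen with earlier results of these data known, so their tests are a description. Cacna1e (chromosome 1) encodes the pore of the R-type, high-voltage-activated calcium channel. It had 60.9 to 250.1 CPM (median 185) in PO, against 0.0791, 0.259, 0 and 0.200 CPM in VB libraries 1 to 4, which is 7 reads in all. Every PO library was thus far above every VB library (log2 fold change 10.25 ± 1.2 (SE), adjusted p = 1.21e-10). Pvalb (chromosome 15), the calcium buffer parvalbumin, ran the other way, with 0 to 0.209 CPM (median 0.127) in PO, against 74.8, 31.1, 56.2 and 52.9 CPM in VB (log2 fold change -8.78 ± 1.44 (SE), adjusted p = 9.67e-06). Foxp2 (chromosome 6), a forkhead transcription factor, had 389.5 to 732 CPM (median 561) in PO, against 78.8, 238, 56.7 and 66.7 CPM in VB, and did not overlap (log2 fold change 2.33 ± 0.46 (SE), adjusted p = 0.000285). Rorb (chromosome 19), an orphan nuclear receptor, had 235 to 497 CPM (median 381) in PO, against 969, 2422, 1137 and 913 CPM in VB (log2 fold change -1.84 ± 0.29 (SE), adjusted p = 2.38e-06). VB library 2 was the high one of VB for both Foxp2 and Rorb, and without it their log2 fold changes were 3.04 and -1.41. Against PO of the shared batch the changes of Cacna1e, Foxp2, Rorb and Pvalb were 9.84, 2.24, -1.69 and -9.41, with adjusted p-values of 3.28e-09, 0.00449, 0.00401 and 0.0079, and all 4 were also called in the other two batch fits.

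For the channel gene and the calcium buffer gene a promoter window each is shown, because their transcripts are close to absent in VB and in PO, one each. The windows are from RefSeq on GRCm38.p6 (mm10), from 250 bases before to 50 bases after a listed start of transcription. They read 5′ to 3′ on the strand of the gene, with matches to AGGTCA or GTAAACA in capitals. Neither window has one. The gene annotation places Cacna1e at chr1:154390731-154884501 on the minus strand. Its window therefore lies inside the gene, downstream of the annotated gene start, and that start is not covered.
Cacna1e, chr1:154725871-154726170, minus strand: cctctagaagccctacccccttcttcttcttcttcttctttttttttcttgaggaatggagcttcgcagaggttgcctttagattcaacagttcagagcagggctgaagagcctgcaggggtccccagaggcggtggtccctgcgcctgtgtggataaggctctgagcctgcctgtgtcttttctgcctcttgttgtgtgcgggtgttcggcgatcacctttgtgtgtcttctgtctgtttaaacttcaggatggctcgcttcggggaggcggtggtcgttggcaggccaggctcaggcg
Pvalb, chr15:78206351-78206650, minus strand: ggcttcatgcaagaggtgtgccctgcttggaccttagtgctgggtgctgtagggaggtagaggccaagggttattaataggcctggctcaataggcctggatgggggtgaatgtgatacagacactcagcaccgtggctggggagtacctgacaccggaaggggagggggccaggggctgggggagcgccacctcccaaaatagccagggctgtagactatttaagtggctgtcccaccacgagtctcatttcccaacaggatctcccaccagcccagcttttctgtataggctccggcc
AGGTCA is the half-site bound by retinoid-related orphan receptors such as Rorb, and GTAAACA is a site of forkhead factors such as Foxp2. Both were searched on both strands, and neither string contains the other. AGGTCA was in 12.1% of the 12305 windows of 9565 tested genes with a window, in 8.39% of the 274 windows of genes higher in PO and in 12.4% of the 170 windows of genes lower in PO. GTAAACA was in 2.42%, 2.92% and 2.94% of the same windows, shares that lie close to those of all windows except for the lower 8.39%. A missing match says only that these letters are not in this window.

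Across the 22 nuclei the 4 markers placed PO and VB far apart. Ranked from the highest mean, Cacna1e stood at 7 for PO and 22 for VB, the lowest of all. Its nearest neighbours by level were IMD and MD for PO (216 ± 46.3 and 173 ± 193 CPM) and VL for VB (0.301 to 3.16 CPM over 6 libraries). Foxp2 stood at 3 for PO and 17 for VB, and LP (555 ± 162 CPM), PO (554 ± 118 CPM) and SPA (592 ± 109 CPM) lay within an SD of one another. Rorb stood at 16 for PO and 1 for VB, where VB (1360.2 ± 715 CPM) did not stand clear of VL (1144 ± 159 CPM) or AV (1126 ± 259 CPM). Pvalb stood at 13 for PO and 2 for VB, where VB (53.7 ± 17.9 CPM) came after VL (76.4 ± 32.4 CPM) and the 2 lay within an SD of VL (SD over 3 to 9 libraries a nucleus).

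**Figure D2:**
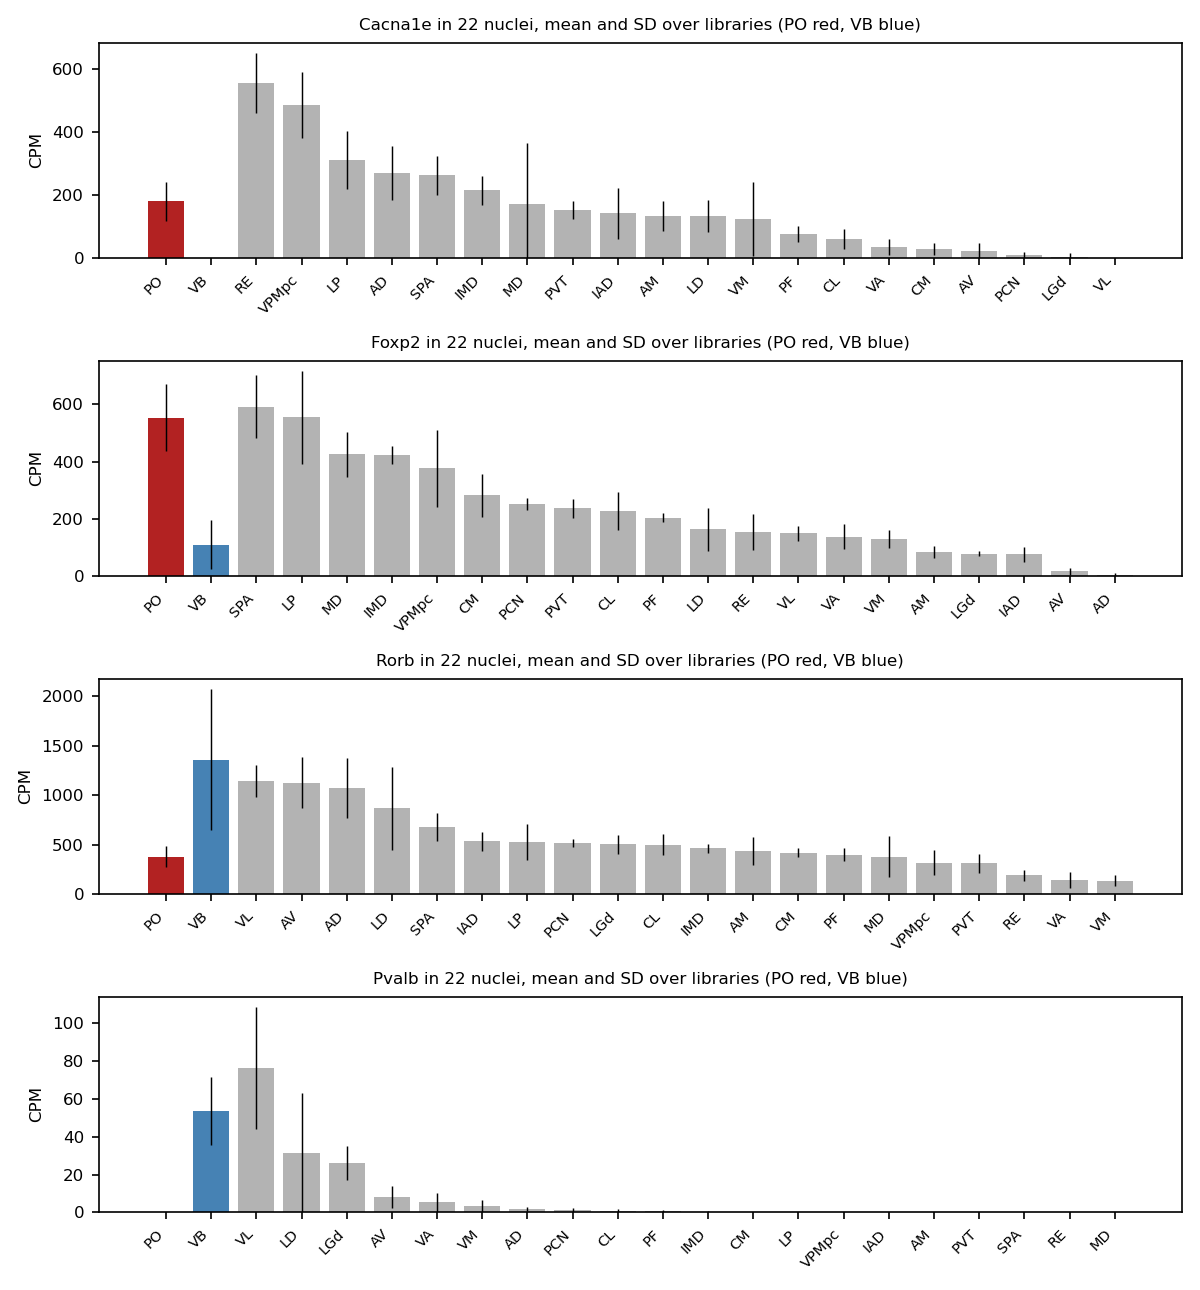
Mean CPM in each of 22 nuclei for Cacna1e, Foxp2, Rorb and Pvalb, with PO (red) and VB (blue) at the left and the other nuclei (grey) from high to low; whiskers are the SD over libraries, drawn no lower than 0. PO is among the high nuclei for Cacna1e and Foxp2, and VB for Rorb and Pvalb.

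The 12 genes with the largest increase in PO were all close to absent in VB. No VB library had a read of Defb1, a defensin, of Glra3, the alpha3 subunit of the glycine receptor, of Chrm1, the M1 muscarinic receptor, of Gabrg1, a GABA-A receptor subunit, or of the long non-coding RNA Rmst. Col8a1, a collagen, Lrrc32, a docking receptor of latent TGF-beta, and Cbln4, a secreted synaptic organiser of the cerebellin family, were likewise without a read in VB. Glra3 had 11.9 to 41.3 CPM (median 18.4) in PO, which is at least 392-fold higher than a floor of 3 reads over all VB libraries (adjusted p = 1.16e-05). Defb1 had 4.51 to 53.1 CPM (median 24.1) in PO and was at least 461-fold higher (adjusted p = 0.00014). For the other six of these genes the bound ran from 216-fold for Cbln4 to 261-fold for Chrm1. Atp2b4, a calcium pump of the plasma membrane, had 23.1 to 209.7 CPM (median 94.7) in PO, against 0.0791, 0.173, 0 and 0 CPM in VB. Its ratio of 1715 has a counting interval of 587 to 8316, as VB had only 3 reads (95%, counting error only; adjusted p = 0.0015). Prph, the intermediate filament peripherin, and Gpr26, an orphan receptor, had 1 read in VB and 13.1 to 33.1 CPM (median 22.3) and 0.905 to 64.3 CPM (median 21.8) in PO. The spread inside PO was wide for several of them: Cbln4 ranged over 1.25 to 38.9 CPM (median 4.60) and Lrrc32 over 0.846 to 30.3 CPM (median 11.3). Lost in at least 1 of the 3 batch fits were the calls of Cbln4 (0.00109, 0.0723, 0.0212) and Gpr26 (0.00723, 0.0595, 0.0069). Leaving out 1 library ended the call of Prph (1 of 11 fits, 0.0528 without VB library 4).

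Among the 12 largest decreases, Fam19a1, a secreted chemokine-like protein also called Tafa1, had 1 read in all PO libraries, against 15.97, 14.4, 10.5 and 28.7 CPM in VB libraries 1 to 4 (1898-fold higher in VB, counting interval 339.7 to 75036; adjusted p = 5.1e-06). Gcnt4, a glycosyltransferase that branches sugar chains, had 0 to 0.141 CPM (median 0) in PO, against 39.4, 11.2, 41.4 and 44.0 CPM in VB (log2 fold change -9.51 ± 1.39 (SE), adjusted p = 5.55e-07). Both were present in every VB library and at or near 0 in every PO library. Stac2, an adaptor of voltage-gated calcium channels, had 0 to 0.139 CPM (median 0.0635) in PO, against 54.3, 1.30, 37.1 and 17.9 CPM in VB (log2 fold change -8.92 ± 1.38 (SE), adjusted p = 2.6e-06). Ppfibp1, the scaffold protein liprin-beta 1, had 0 to 8.19 CPM (median 2.65) in PO, against 111, 103, 136 and 75.1 CPM in VB (log2 fold change -5.03 ± 0.79 (SE), adjusted p = 3.07e-06), and was evenly high in VB. The synaptic vesicle protein gene Sv2c averaged 0.349 ± 0.464 CPM in PO and 25.2 ± 27.6 CPM in VB (SD, n = 7 and 4; adjusted p = 0.00142). Lrrc55, an auxiliary subunit of BK potassium channels, averaged 1.03 ± 1.89 CPM in PO and 32.0 ± 21.9 CPM in VB (adjusted p = 0.00193). It is also in the list of habenula markers, of which 3 of 9 were tested; these summed to 11.9 to 68.5 CPM in PO and to 44.0 to 65.8 CPM in VB (exact permutation test, 2-sided p = 0.0667, adjusted p = 0.217), with Nhlh2 at 9.14 to 68.5 CPM in PO and 10.3 to 35.1 CPM in VB and Gpr151 at 0 to 6.92 CPM in PO and 0 to 0.553 CPM in VB. The part of habenula RNA was not tested. The orphan receptor Gpr149 averaged 0.450 ± 0.767 CPM in PO and 16.3 ± 8.26 CPM in VB (adjusted p = 0.00811). Cdkn1a, the cell cycle inhibitor p21, averaged 0.549 ± 1.17 CPM in PO and 17.5 ± 8.70 CPM in VB (adjusted p = 0.0423). Ankrd55 (log2 fold change -5.19 ± 1.51 (SE), adjusted p = 0.0365) and BC035947 (log2 fold change -3.80 ± 1.01 (SE), adjusted p = 0.0153) complete the set with Pvalb and Scn4b. In the fit with animals as a block, Sv2c (0.077), Lrrc55 (0.0997), Gpr149 (0.2), Cdkn1a (0.0556), Ankrd55 (0.267) and BC035947 (0.309) had no call. The 3 batch fits gave 1 or more values above the threshold for Sv2c (0.121, 0.155, 0.204), Lrrc55 (0.0287, 0.0444, 0.153), Gpr149 (0.0236, 0.0399, 0.117), Cdkn1a (0.157, 0.0425, 0.146), Ankrd55 (0.196, 0.175, 0.269) and BC035947 (0.109, 0.144, 0.272). Dropping single libraries removed calls of Cdkn1a (9 of 11 fits, 0.0859 without VB library 1), Ankrd55 (7 of 11 fits, 0.121 without VB library 4) and BC035947 (1 of 11 fits, 0.0886 without VB library 4). Without 1 library, fold changes shifted by over 1.5 times for Gcnt4 (log2 -10.14 without PO library 4), Ankrd55 (log2 -5.87 without PO library 3), Ankrd55 (log2 -4.47 without VB library 4) and BC035947 (log2 -4.75 without PO library 3). The same held for Fam19a1 (log2 from -9.94 to -11.13 without PO library 5), Sv2c (from -6.13 to -5.02 without VB library 1) and Lrrc55 (from -4.94 to -6.53 without PO library 1). It also held for Gpr149 (from -5.14 to -6.30 without PO library 3) and Cdkn1a (from -4.97 to -7.27 without PO library 2).

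**Figure D3:**
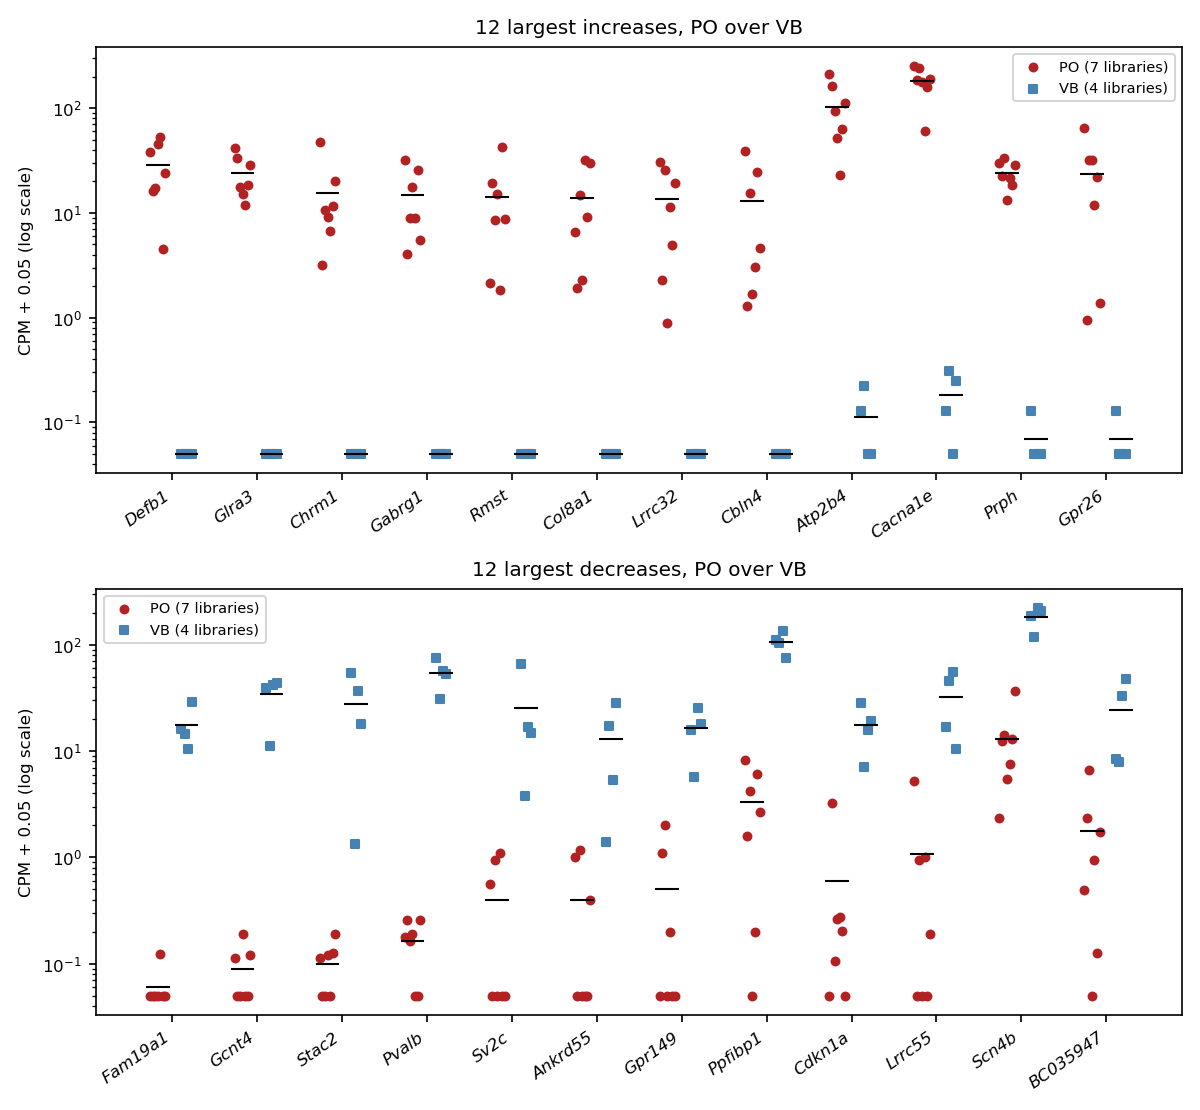
CPM + 0.05 (log scale) in each PO library (red) and each VB library (blue), with the mean as a bar, for the 12 largest increases (top) and the 12 largest decreases (bottom) among called genes of at least 10 CPM whose levels did not overlap. A point at 0.05 is a library without a read.

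Voltage-gated sodium channel genes, which set the threshold and speed of the action potential, were called in both directions: 3 of 13 tested were higher in PO (23.1%) and 3 were lower (23.1%), with 7 of the 13 free of overlap. Over all 16527 genes tested, 1.60% were called higher in PO, 1.05% were called lower and 3.27% were free of overlap. These shares are the background for the counts of every list below. Of the pore-forming subunits, Scn2a (Nav1.2) had 494 to 700.1 CPM (median 611) in PO, against 240.5, 313, 212 and 169 CPM in VB (log2 fold change 1.37 ± 0.19 (SE), adjusted p = 1.8e-07). Scn3a (Nav1.3) was also higher in PO, at 136 ± 30.0 CPM in PO and 56.9 ± 22.8 CPM in VB (log2 fold change 1.26 ± 0.33 (SE), adjusted p = 0.0136). Scn1a (Nav1.1) had 486 to 922 CPM (median 566) in PO, against 1240.4, 1734, 1172 and 1195 CPM in VB (log2 fold change -1.03 ± 0.20 (SE), adjusted p = 0.000314), and Scn8a (Nav1.6) had 559.7 to 975 CPM (median 814) in PO, against 1513, 1859, 1325 and 1395 CPM in VB (log2 fold change -0.92 ± 0.20 (SE), adjusted p = 0.00109). So Scn2a and Scn3a were the higher pores in PO, and Scn1a and Scn8a the lower ones, each without overlap. Auxiliary beta subunits were also called in both directions. Scn3b had 66.5 to 192 CPM (median 115) in PO, against 3.56, 0.173, 0.102 and 12.4 CPM in VB (log2 fold change 4.90 ± 0.72 (SE), adjusted p = 4.61e-07). Scn4b, the subunit tied to resurgent sodium current and fast repetitive firing, had 2.28 to 36.5 CPM (median 12.5) in PO, against 186, 118, 221 and 206 CPM in VB (log2 fold change -3.81 ± 1.13 (SE), adjusted p = 0.0408). The animal block ended the call of Scn3a (0.0964). At least 1 batch fit missed the threshold for Scn3a (0.0415, 0.204, 0.105), Scn1a (0.135, 0.217, 0.144), Scn8a (0.059, 0.0833, 0.0664), Scn3b (1.22e-05, 0.0833, 0.0116) and Scn4b (0.418, 0.0126, 0.0116). Single libraries decided the call of Scn3a (1 of 11 fits, 0.135 without VB library 3) and Scn4b (10 of 11 fits, 0.0871 without PO library 1). With 1 library left out, the fold change shifted by over 1.5 times for Scn3b (log2 6.54 without VB library 4).

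The windows of the 2 pore genes that were lower in PO each hold 1 AGGTCA, in capitals; for Scn8a it is the more downstream of its 2 listed windows. As the string is in 12.1% of all windows, this is a description of the letters only.
Scn1a, chr2:66440788-66441087, minus strand: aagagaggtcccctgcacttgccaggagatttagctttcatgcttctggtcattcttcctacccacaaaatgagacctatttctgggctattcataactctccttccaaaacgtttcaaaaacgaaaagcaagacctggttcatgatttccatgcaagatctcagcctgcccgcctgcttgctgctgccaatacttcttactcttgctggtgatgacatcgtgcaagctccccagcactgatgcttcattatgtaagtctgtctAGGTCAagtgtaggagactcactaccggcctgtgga
Scn8a, chr15:100936021-100936320, plus strand: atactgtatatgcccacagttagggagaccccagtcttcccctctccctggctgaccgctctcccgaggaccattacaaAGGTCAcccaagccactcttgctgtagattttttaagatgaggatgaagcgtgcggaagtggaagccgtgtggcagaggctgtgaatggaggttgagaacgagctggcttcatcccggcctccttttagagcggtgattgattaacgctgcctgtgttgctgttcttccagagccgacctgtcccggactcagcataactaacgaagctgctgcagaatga

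Calcium channel genes were called in 3 of 21 cases: Cacna1e and Cacna2d2 were higher in PO (9.52%) and Cacng7 was lower (4.76%). Cacna2d2, an alpha2delta subunit that carries the pore to the membrane, had 13.5 to 163 CPM (median 82.5) in PO, against 13.4, 10.0, 10.4 and 23.3 CPM in VB (log2 fold change 2.53 ± 0.45 (SE), adjusted p = 4.49e-05), and 1 PO library, library 6, lay inside the VB range. Cacng7, a TARP that also binds AMPA receptors, had 41.5 to 90.5 CPM (median 51.7) in PO, against 163, 94.7, 111 and 247 CPM in VB (log2 fold change -1.35 ± 0.41 (SE), adjusted p = 0.0463). Cacna1g, the main T-type channel of relay neurons, averaged 414 ± 129 CPM in PO and 279.9 ± 85.4 CPM in VB and was not called (log2 fold change 0.56 ± 0.30 (SE), adjusted p = 0.37). None of the 6 HCN pacemaker channel genes and partners was called by edgeR, against 1 by DESeq2 and 1 at an unadjusted p under 0.05. Blocking on animals left Cacng7 (0.123) above the threshold. Batch fits ended calls of Cacna2d2 (0.0161, 0.359, 0.146) and Cacng7 (0.144, 0.0852, 0.0675). Without 1 library, calls were lost for Cacng7 (9 of 11 fits, 0.28 without VB library 4).

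Among 33 voltage-gated potassium channel genes, 4 were higher and 4 lower in PO (12.1% each). The lower ones included the fast Kv3 pore Kcnc1 and the beta subunits Kcnab2 and Kcnab3. Kcnc1 averaged 419 ± 92.5 CPM in PO and 725 ± 42.2 CPM in VB (log2 fold change -0.79 ± 0.21 (SE), adjusted p = 0.0128). Kcnab3 had 15.2 to 42.3 CPM (median 18.8) in PO, against 222, 263, 144 and 319 CPM in VB (log2 fold change -3.27 ± 0.82 (SE), adjusted p = 0.00825). The level of Kcnab3 in every VB library was thus several times that in any PO library. Kcnab2 averaged 60.0 ± 18.9 CPM in PO and 189.7 ± 98.2 CPM in VB (adjusted p = 0.0412), with VB library 2 inside the PO range. The higher ones included the M-type channel Kcnq5, at 10.1 ± 9.04 CPM in PO and 0.637 ± 1.10 CPM in VB (log2 fold change 3.95 ± 1.03 (SE), adjusted p = 0.013). Kcna3 and Kcnip2 were called higher with means under 5 CPM in both nuclei, and ranged over 0 to 9.88 CPM and 0 to 13.5 CPM in PO. Of 22 leak, inward rectifier and calcium- or sodium-activated channels, 3 were higher in PO (13.6%) and 1 was lower (4.55%). Kcnt2, a sodium-activated channel, had 23.3 to 61.1 CPM (median 41.8) in PO, against 8.85, 0, 0.102 and 0 CPM in VB (log2 fold change 4.26 ± 0.86 (SE), adjusted p = 0.000442). Kcnn3, a small-conductance calcium-activated channel, averaged 305 ± 68.6 CPM in PO and 161 ± 7.81 CPM in VB (log2 fold change 0.92 ± 0.27 (SE), adjusted p = 0.0381). Kcnj2, an inward rectifier, reached 147 CPM in PO library 4 and was 0.336 to 21.2 CPM in the other PO libraries, against 0.158, 0, 1.02 and 0 CPM in VB (adjusted p = 0.0423). Kcnk12, a member of the K2P family, averaged 0.688 ± 0.964 CPM in PO and 11.04 ± 11.5 CPM in VB (adjusted p = 0.0297). When animals entered as a block, Kcnc1 (0.0681), Kcnab2 (0.139), Kcnq5 (0.367), Kcna3 (0.451), Kcnip2 (0.253), Kcnn3 (0.061) and Kcnk12 (0.164) did not pass. In 1 or more of the batch fits no call was made for Kcnc1 (0.298, 0.286, 0.304), Kcnab3 (0.289, 0.0036, 0.000581), Kcnab2 (0.172, 0.157, 0.0837), Kcnq5 (0.0519, 0.536, 0.497), Kcna3 (0.00981, 0.121, 0.146), Kcnip2 (0.0935, not tested, 0.22), Kcnt2 (0.00535, 0.46, 0.197), Kcnn3 (0.403, 0.453, 0.359), Kcnj2 (0.23, 0.308, 0.129) and Kcnk12 (0.175, 0.26, 0.393). The call depended on single libraries for Kcnab2 (7 of 11 fits, 0.149 without VB library 4), Kcnq5 (3 of 11 fits, 0.08 without VB library 4), Kcna3 (3 of 11 fits, 0.064 without VB library 4), Kcnip2 (6 of 11 fits, 0.118 without VB library 4), Kcnn3 (8 of 11 fits, 0.109 without VB library 3), Kcnj2 (4 of 11 fits, 0.148 without VB library 4) and Kcnk12 (7 of 11 fits, 0.21 without VB library 2). The fold change moved by over 1.5 times without 1 library for Kcnq5 (log2 6.79 without VB library 1) and Kcnt2 (log2 10.25 without VB library 1). For Kcnj2 it moved from log2 6.72 to 5.24 without PO library 4 and to 8.99 without VB library 3. For Kcnk12 it moved from log2 -3.99 to -4.99 without PO library 2 and to -2.98 without VB library 2.

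Receptors for fast inhibition differed in their subunits. Glra3, Gabrg1, Gabrq and Gabra3 were the 4 of 20 GABA and glycine receptors called higher in PO (20.0%), and 2 were called lower (10.0%), among them Gabrb2. Gabra3 had 31.3 to 159 CPM (median 116) in PO, against 34.1, 0.432, 2.95 and 2.0 CPM in VB (log2 fold change 3.50 ± 0.68 (SE), adjusted p = 0.000275). Gabrb2 averaged 531 ± 66.1 CPM in PO and 854 ± 257 CPM in VB (log2 fold change -0.69 ± 0.20 (SE), adjusted p = 0.0366). In the fit of all libraries, the alpha3 and gamma1 transcripts were thus called higher in PO and the beta2 transcript lower. Gabra3 overlapped, with VB library 1 inside the PO range. Under the animal block, Gabrq (0.314) and Gabrb2 (0.101) missed the threshold. Calls not made in every batch fit were those of Gabrq (0.0244, not tested, 0.219), Gabra3 (0.00132, 0.169, 0.0726) and Gabrb2 (0.426, 0.567, 0.463). Fits that left out 1 library lost the call of Gabrq (4 of 11 fits, 0.0615 without VB library 4) and Gabrb2 (6 of 11 fits, 0.35 without VB library 2). Without 1 library, fold changes shifted by over 1.5 times for Gabra3 (log2 5.97 without VB library 1).

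Among ionotropic glutamate receptors, 2 of 17 were higher in PO and 2 were lower (11.8% each). Grin3a, an NMDA receptor subunit that lowers calcium entry, had 102 to 172 CPM (median 118) in PO, against 45.6, 1.64, 0.102 and 2.20 CPM in VB (log2 fold change 3.33 ± 0.54 (SE), adjusted p = 5.74e-06). Grin2a, the NMDA receptor subunit of mature synapses, had 349.5 to 489 CPM (median 407) in PO, against 1018, 1629, 901 and 774 CPM in VB (log2 fold change -1.34 ± 0.26 (SE), adjusted p = 0.00023), so these NMDA receptor genes changed in opposite directions. The AMPA receptor gene Gria3 averaged 439 ± 127 CPM in PO and 886 ± 262 CPM in VB (log2 fold change -1.01 ± 0.28 (SE), adjusted p = 0.0253) and the kainate receptor gene Grik2 averaged 419 ± 157 CPM in PO and 215 ± 115 CPM in VB (log2 fold change 0.96 ± 0.28 (SE), adjusted p = 0.0398). Of 7 metabotropic receptors, Grm2 and Grm5 were higher in PO (28.6%) and none was lower. Grm5, which couples to Gq, had 267 to 489.7 CPM (median 311) in PO, against 154, 113, 65.7 and 169 CPM in VB (log2 fold change 1.46 ± 0.26 (SE), adjusted p = 6.12e-05). Grm2, which couples to Gi, had 39.4 to 107 CPM (median 57.1) in PO, against 18.5, 0.0865, 0.102 and 0 CPM in VB (log2 fold change 3.66 ± 0.93 (SE), adjusted p = 0.0101). Calls that did not hold with animals as a block were those of Gria3 (0.0635) and Grik2 (0.3). Lost in at least 1 of the 3 batch fits were the calls of Grin3a (0.000106, 0.344, 0.149), Gria3 (0.225, 0.2, 0.14), Grik2 (0.178, 0.429, 0.387), Grm5 (0.0162, 0.162, 0.0885) and Grm2 (0.0827, 0.566, 0.338). Removal of 1 library took away the call of Gria3 (3 of 11 fits, 0.207 without VB library 2), Grik2 (6 of 11 fits, 0.21 without VB library 4) and Grm2 (3 of 11 fits, 0.0687 without VB library 3). With 1 library left out, the fold change shifted by over 1.5 times for Grin3a (log2 6.52 without VB library 1) and Grm2 (log2 9.86 without VB library 1).

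Of 21 receptors for monoamines, acetylcholine and histamine, 5 were higher in PO (23.8%) and 1 was lower (4.76%). Htr2c, a Gq-coupled serotonin receptor, had 42.9 to 182 CPM (median 62.0) in PO, against 8.93, 2.77, 0.611 and 1.20 CPM in VB (log2 fold change 4.72 ± 0.91 (SE), adjusted p = 0.000231). Drd5, a D1-class dopamine receptor, had 0 to 16.9 CPM (median 4.09) in PO, with no read in 2 of the 7 libraries, and no read in VB (at least 88.5-fold higher, adjusted p = 0.0152). Chrm2, the M2 muscarinic receptor, averaged 45.6 CPM in PO and 8.55 CPM in VB (adjusted p = 0.0455), and Hrh1, a histamine receptor, averaged 2.10 CPM in PO and 0 CPM in VB (adjusted p = 0.0466). Drd1 was the lower gene, with no read in PO and 2.29 to 7.03 CPM in VB (adjusted p = 0.000499). It is better known from the striatum and stands also in the list of cortex and striatum neuron markers. Of that list 5 of 12 genes were tested, and Drd1 alone was called. The 5 summed to 22.0 to 80.1 CPM in PO and to 39.3 to 90.9 CPM in VB (exact permutation test, 2-sided p = 0.230, adjusted p = 0.453). The part of cortex or striatum RNA was not tested. Of 17 peptide, opioid and cannabinoid receptors, Sstr3 and Adcyap1r1 were higher in PO (11.8%). Adcyap1r1, the PACAP receptor, had 45.9 to 205 CPM (median 99.8) in PO, against 13.2, 9.25, 10.7 and 9.40 CPM in VB (log2 fold change 3.23 ± 0.75 (SE), adjusted p = 0.00307). The somatostatin receptor gene Sstr3 averaged 14.96 ± 7.94 CPM in PO and 0.125 ± 0.189 CPM in VB (adjusted p = 0.0497). The block on animals took away the call of Drd5 (0.12), Chrm2 (0.055), Drd1 (0.0832) and Sstr3 (0.146), and Hrh1 was not tested in that fit. The 3 batch fits gave 1 or more values above the threshold for Drd5 (0.0263, not tested, 0.152), Chrm2 (0.194, 0.407, 0.203), Hrh1 (0.157, not tested, not tested), Drd1 (0.0799, 0.155, 0.187) and Sstr3 (0.16, not tested, 0.0705). Among fits without 1 library, the threshold was missed by Drd5 (4 of 11 fits, 0.0635 without VB library 4), Chrm2 (8 of 11 fits, 0.202 without VB library 3), Hrh1 (7 of 11 fits, 0.135 without VB library 4) and Sstr3 (10 of 11 fits, 0.156 without VB library 2). Single libraries shifted the fold change by over 1.5 times for Htr2c (log2 5.87 without VB library 1), Drd5 (log2 from 9.42 to 8.76 without PO library 7) and Sstr3 (log2 from 6.76 to 8.59 without VB library 4).

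The machinery of transmitter release was called in 8 of 38 genes, 4 in each direction (10.5% each). Vamp1, a synaptobrevin of fast synapses, had 58.1 to 136 CPM (median 94.9) in PO, against 492, 452, 542 and 448 CPM in VB (log2 fold change -2.38 ± 0.38 (SE), adjusted p = 5.1e-06). Cplx1, a complexin that clamps and synchronises fusion, had 277 to 614 CPM (median 473) in PO, against 1268, 807, 1185 and 1271 CPM in VB (log2 fold change -1.32 ± 0.28 (SE), adjusted p = 0.000928). Snap25, a SNARE of the plasma membrane, averaged 8745 CPM in PO and 16668 CPM in VB (log2 fold change -0.93 ± 0.20 (SE), adjusted p = 0.00105). With Sv2c these were the 4 lower genes. Syt5, a synaptotagmin, had 19.0 to 168 CPM (median 50.8) in PO, against 9.88, 0, 0 and 0.0667 CPM in VB (log2 fold change 4.62 ± 0.91 (SE), adjusted p = 0.000294). Unc13b, a priming factor, averaged 184 CPM in PO and 32.8 CPM in VB (log2 fold change 2.49 ± 0.43 (SE), adjusted p = 1.9e-05). Stx1a, another such SNARE, averaged 19.2 ± 9.23 CPM in PO and 1.54 ± 2.82 CPM in VB (adjusted p = 0.0461), and Doc2b, a calcium sensor of spontaneous release, averaged 6.65 ± 7.61 CPM in PO and 0.0593 ± 0.119 CPM in VB (adjusted p = 0.00599). No call remained with the animal block for Stx1a (0.116) and Doc2b (0.132). At least 1 batch fit missed the threshold for Snap25 (0.164, 0.318, 0.222), Syt5 (0.0239, 0.574, 0.269), Stx1a (0.204, 0.645, 0.443) and Doc2b (0.0287, not tested, 0.219). A left-out library changed the call of Snap25 (1 of 11 fits, 0.117 without VB library 2) and Stx1a (8 of 11 fits, 0.17 without VB library 2). The fold change moved by over 1.5 times without 1 library for Syt5 (log2 10.79 without VB library 1) and Stx1a (log2 from 3.62 to 7.24 without VB library 1). For Doc2b it moved from log2 6.60 to 5.87 without PO library 2 and to 9.74 without VB library 1.

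Calcium-binding proteins, pumps and exchangers held 7 of 27 genes higher in PO (25.9%) and 2 lower (7.41%). Calb2 (calretinin) had 10.1 to 112 CPM (median 66.5) in PO, against 0.0791, 0.173, 0.204 and 0 CPM in VB (log2 fold change 8.98 ± 1.41 (SE), adjusted p = 2.6e-06). Calb1 (calbindin) had 169.9 to 262 CPM (median 226) in PO, against 116, 10.5, 9.88 and 27.3 CPM in VB (log2 fold change 2.41 ± 0.52 (SE), adjusted p = 0.00116). Necab1, an EF-hand protein of neurons, had 356 to 783 CPM (median 601) in PO, against 122, 0.173, 0.305 and 0.400 CPM in VB (log2 fold change 4.27 ± 0.85 (SE), adjusted p = 0.000361). All 3 were without overlap, with VB library 1 the high one for Calb1 and Necab1. The exchanger Slc8a2 averaged 57.4 CPM in PO and 2.97 CPM in VB (log2 fold change 4.26 ± 0.76 (SE), adjusted p = 4.4e-05) and the calcium sensor Hpcal4 averaged 87.7 CPM in PO and 17.9 CPM in VB (log2 fold change 2.29 ± 0.61 (SE), adjusted p = 0.0155). Caln1 rested on PO library 1, with 46.2 CPM there, 0 to 1.74 CPM in the other PO libraries and no read in VB (adjusted p = 0.0269). Beside Pvalb, the potassium-dependent sodium/calcium exchanger Slc24a2 was lower in PO, with 2277 to 4507 CPM (median 2757) in PO, against 4929.5, 9728, 5711 and 5322 CPM in VB (log2 fold change -1.09 ± 0.23 (SE), adjusted p = 0.000829). With animals as a block, Hpcal4 (0.219) fell short of the threshold, and Caln1 was not tested in that fit. Lost in at least 1 of the 3 batch fits were the calls of Calb1 (0.0104, 0.183, 0.0682), Necab1 (0.00269, 0.36, 0.165), Slc8a2 (0.0017, 0.129, 0.0285), Hpcal4 (0.0614, 0.486, 0.346), Caln1 (0.307, not tested, not tested) and Slc24a2 (0.0965, 0.165, 0.0885). Leaving out 1 library ended the call of Hpcal4 (2 of 11 fits, 0.118 without VB library 4), Caln1 (5 of 11 fits, 0.247 without PO library 1) and Slc24a2 (1 of 11 fits, 0.0529 without VB library 2). The fold change moved by over 1.5 times without 1 library for Calb1 (log2 3.77 without VB library 1), Necab1 (log2 10.92 without VB library 1) and Caln1 (log2 from 9.80 to 5.48 without PO library 1).

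Neurofilaments and other genes of the axonal cytoskeleton held the largest share of called members among the lists with at least 5 members tested: 6 of 15 were lower in PO (40%) and 4 were higher (26.7%), and 10 of the 15 did not overlap. The 3 neurofilament subunits, which build the calibre of large axons, were all lower. Nefh had 78.3 to 159.8 CPM (median 112) in PO, against 427, 759, 525 and 511 CPM in VB (log2 fold change -2.32 ± 0.36 (SE), adjusted p = 2.6e-06). Nefm had 106 to 551 CPM (median 291) in PO, against 999, 2034, 930.1 and 741 CPM in VB (log2 fold change -1.89 ± 0.31 (SE), adjusted p = 7.2e-06). Nefl had 255 to 489.5 CPM (median 378) in PO, against 858, 1109, 926 and 655 CPM in VB (log2 fold change -1.17 ± 0.21 (SE), adjusted p = 4.51e-05). VB library 2 was the highest of the VB libraries for each, and no PO library reached the lowest VB library. Ina, the fourth neurofilament protein gene, averaged 495 CPM in PO and 970.1 CPM in VB (log2 fold change -0.97 ± 0.20 (SE), adjusted p = 0.000589), the microtubule-associated Map1a averaged 942 CPM in PO and 2011 CPM in VB (log2 fold change -1.09 ± 0.18 (SE), adjusted p = 7.2e-06), and Ank3, the scaffold of the axon initial segment, averaged 1363 CPM in PO and 2140.2 CPM in VB (log2 fold change -0.65 ± 0.14 (SE), adjusted p = 0.00129). The higher genes were Prph, the growth-associated Gap43 and the tubulin-binding stathmins Stmn1 and Stmn2. Gap43 had 363 to 489 CPM (median 373) in PO, against 205, 267, 106 and 83.1 CPM in VB (log2 fold change 1.29 ± 0.26 (SE), adjusted p = 0.000602), and Stmn1 had 59.7 to 133 CPM (median 92.9) in PO, against 51.3, 26.5, 34.9 and 33.3 CPM in VB (log2 fold change 1.46 ± 0.32 (SE), adjusted p = 0.00178). In the fit with animals as a block, Ank3 (0.142), Stmn2 (0.189) and Stmn1 (0.0716) had no call. The 3 batch fits gave 1 or more values above the threshold for Nefm (0.00667, 0.0252, 0.051), Nefl (0.0108, 0.0622, 0.0675), Ina (0.0253, 0.0948, 0.0885), Ank3 (0.00449, 0.197, 0.1), Stmn2 (0.256, 0.443, 0.366), Gap43 (0.0104, 0.194, 0.0885) and Stmn1 (0.0583, 0.337, 0.178). Dropping single libraries removed calls of Ank3 (1 of 11 fits, 0.118 without VB library 2) and Stmn2 (8 of 11 fits, 0.184 without VB library 3).

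**Figure D4:**
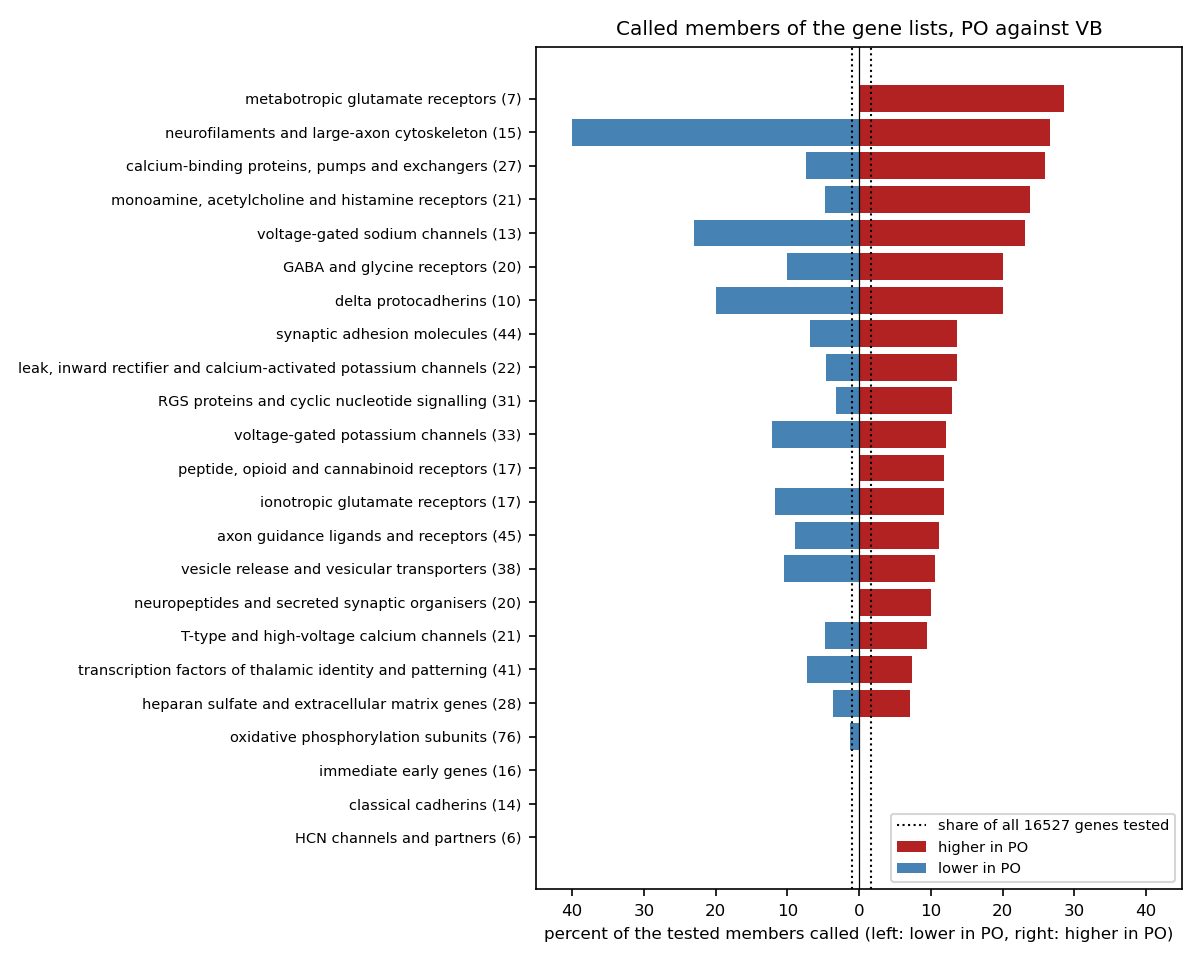
Percent of the tested members of each gene list called higher in PO (red, right) and lower in PO (blue, left), for lists with at least 5 tested members (number in brackets). Dotted lines mark 1.60% and 1.05%, the shares of all 16527 genes tested; the lists were drawn up from genes known in neurons and with earlier results of these data known.

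Adhesion molecules of the synapse were called in 9 of 44 cases, 6 higher in PO (13.6%) and 3 lower (6.82%). Igsf21, a neurexin ligand of inhibitory synapses, had 1.90 to 30.5 CPM (median 23.6) in PO and 1 read in VB (1029-fold higher in PO, counting interval 184 to 40654; adjusted p = 5.74e-06). Lrrtm4, a partner of neurexins and heparan sulfate at excitatory synapses, had 21.9 to 119.5 CPM (median 44.2) in PO, against 2.06, 0.0865, 0.305 and 1.07 CPM in VB (log2 fold change 5.81 ± 0.95 (SE), adjusted p = 6.42e-06). Its relatives Lrrtm1 (log2 fold change 1.06 ± 0.28) and Lrrtm3 (2.67 ± 0.60), and the teneurin Tenm1 (0.98 ± 0.23) were called in the same direction. The contactin Cntn5 averaged 26.2 ± 12.9 CPM in PO and 2.78 ± 1.76 CPM in VB (log2 fold change 3.23 ± 0.90 (SE), adjusted p = 0.0256). Lower in PO were Slitrk1 (126 ± 47.7 CPM in PO and 319.9 ± 35.8 CPM in VB; log2 fold change -1.34 ± 0.36 (SE), adjusted p = 0.0153), Cntnap2 (200.2 ± 68.6 CPM in PO and 395 ± 115 CPM in VB; log2 fold change -0.98 ± 0.23 (SE), adjusted p = 0.00307) and Ntng2, which had no read in PO. Of 20 neuropeptides and secreted organisers, Cbln4 and Nxph1 were higher in PO (10%) and none was lower. Nxph1, a ligand of neurexins, had 64.6 to 149.7 CPM (median 76.5) in PO, against 42.1, 29.6, 17.1 and 3.0 CPM in VB (log2 fold change 2.02 ± 0.46 (SE), adjusted p = 0.0024). Of 10 delta protocadherins, Pcdh19 and Pcdh10 were higher and Pcdh7 and Pcdh9 lower in PO (20.0% each). Pcdh19 had 62.2 to 185 CPM (median 120.1) in PO, against 8.78, 23.8, 22.7 and 30.5 CPM in VB (log2 fold change 2.51 ± 0.47 (SE), adjusted p = 0.00014), and Pcdh7 had 99.4 to 213 CPM (median 135) in PO, against 298, 761, 366 and 405 CPM in VB (log2 fold change -1.68 ± 0.34 (SE), adjusted p = 0.000429). Pcdh10 averaged 241 ± 59.0 CPM in PO and 119 ± 57.1 CPM in VB (log2 fold change 1.02 ± 0.28 (SE), adjusted p = 0.024) and Pcdh9 averaged 653 ± 140.3 CPM in PO and 1129.5 ± 166 CPM in VB (log2 fold change -0.79 ± 0.21 (SE), adjusted p = 0.0175). None of 14 classical cadherins was called by edgeR in the fit of all libraries, against 2 by DESeq2 and 2 at an unadjusted p under 0.05. With the animal as a block edgeR called 1 of 12, Cdh6, lower in PO, and without VB library 2 it called 1 of 14, Cdh8, higher. Of the 14, Cdh6 alone had levels without overlap; both were singled out after their values were seen. The animal block ended the call of Lrrtm1 (0.0743), Tenm1 (0.0635), Cntnap2 (0.0743), Pcdh10 (0.075) and Pcdh9 (0.05), and Ntng2 was not tested in that fit. At least 1 batch fit missed the threshold for Lrrtm1 (0.0464, 0.181, 0.0885), Tenm1 (0.0965, 0.327, 0.201), Ntng2 (0.322, not tested, not tested), Cntn5 (0.0842, 0.206, 0.0838), Cntnap2 (0.152, 0.345, 0.345), Nxph1 (0.121, 0.495, 0.307), Pcdh10 (0.187, 0.463, 0.36) and Pcdh9 (0.434, 0.442, 0.347). Single libraries decided the call of Lrrtm1 (2 of 11 fits, 0.146 without VB library 3), Tenm1 (1 of 11 fits, 0.0653 without VB library 4), Ntng2 (2 of 11 fits, 0.0658 without VB library 1), Cntn5 (3 of 11 fits, 0.116 without VB library 2), Slitrk1 (1 of 11 fits, 0.0551 without VB library 1), Cntnap2 (1 of 11 fits, 0.0693 without VB library 2), Pcdh10 (4 of 11 fits, 0.209 without VB library 4) and Pcdh9 (3 of 11 fits, 0.0891 without VB library 4). With 1 library left out, the fold change shifted by over 1.5 times for Lrrtm4 (log2 6.62 without VB library 1) and Igsf21 (log2 from 9.52 to 11.38 without VB library 1).

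Among 45 axon guidance ligands and receptors, 5 were higher in PO (11.1%) and 4 were lower (8.89%). Sema6d, a transmembrane semaphorin, had 22.5 to 100.3 CPM (median 67.4) in PO, against 456, 679, 645 and 433 CPM in VB (log2 fold change -3.17 ± 0.35 (SE), adjusted p = 4.45e-11). Plxnc1, a semaphorin receptor, had 272 to 455 CPM (median 350.1) in PO, against 63.2, 29.3, 20.4 and 19.9 CPM in VB (log2 fold change 3.41 ± 0.46 (SE), adjusted p = 5.27e-08). Sema6d was thus lower and Plxnc1 higher in PO, with no overlap for either. Plxna4, a receptor for class 3 and class 6 semaphorins, was lower in PO, as were Sema5a and Ephb1. Plxna4 averaged 130.2 ± 45.4 CPM in PO and 404 ± 45.3 CPM in VB (log2 fold change -1.63 ± 0.29 (SE), adjusted p = 4.4e-05) and Sema5a averaged 384 ± 131 CPM in PO and 959 ± 341 CPM in VB (log2 fold change -1.32 ± 0.31 (SE), adjusted p = 0.00447). Ephb1 had no read in PO and averaged 4.00 CPM in VB (adjusted p = 0.0169). The Slit receptor Robo2 had 24.05 to 75.0 CPM (median 53.1) in PO, against 11.5, 10.1, 1.93 and 8.27 CPM in VB (log2 fold change 2.67 ± 0.56 (SE), adjusted p = 0.000917). Slit1, a Slit ligand, averaged 4.69 CPM in PO and had no read in VB (adjusted p = 0.0056). The ephrin receptors Epha6 (71.2 ± 32.3 CPM in PO and 16.7 ± 13.9 CPM in VB; log2 fold change 2.09 ± 0.46 (SE), adjusted p = 0.0017) and Epha5 (40.02 CPM in PO and 12.5 CPM in VB; log2 fold change 1.68 ± 0.39 (SE), adjusted p = 0.00307) were also higher in PO. Blocking on animals left Slit1 (0.235), Epha6 (0.0635) and Epha5 (0.267) above the threshold, and Ephb1 was not tested in that fit. Batch fits ended calls of Sema5a (0.154, 0.0683, 0.0974), Ephb1 (0.299, not tested, not tested), Robo2 (0.0159, 0.206, 0.0823), Slit1 (0.242, not tested, 0.391), Epha6 (0.00573, 0.157, 0.0854) and Epha5 (0.0614, 0.645, 0.56). Without 1 library, calls were lost for Sema5a (1 of 11 fits, 0.0945 without VB library 2), Ephb1 (1 of 11 fits, 0.168 without VB library 4) and Epha5 (1 of 11 fits, 0.0617 without VB library 4). Single libraries shifted the fold change by over 1.5 times for Epha6 (log2 2.87 without VB library 1).

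Transcription factors of thalamic identity were called in 6 of 41 cases, 3 in each direction (7.32% each). Beside Foxp2, its relative Foxp1 had 109 to 246 CPM (median 152) in PO, against 29.7, 18.9, 41.4 and 52.2 CPM in VB (log2 fold change 2.13 ± 0.40 (SE), adjusted p = 0.000166). Tcf7l2, the Wnt effector that marks thalamic neurons as a whole, had 1841 to 2893 CPM (median 2182) in PO, against 1201, 1671, 1176 and 1168 CPM in VB (log2 fold change 0.74 ± 0.19 (SE), adjusted p = 0.0116). Beside Rorb, the coactivator Ppargc1a, known for mitochondrial biogenesis and for parvalbumin neurons, had 51.3 to 270.1 CPM (median 174) in PO, against 597, 1133, 662 and 578 CPM in VB (log2 fold change -2.14 ± 0.34 (SE), adjusted p = 4.11e-06). Nfia, of the nuclear factor I family, had 2.85 to 40.2 CPM (median 12.2) in PO, against 63.2, 70.7, 143 and 138 CPM in VB (log2 fold change -2.67 ± 0.63 (SE), adjusted p = 0.00376). Gbx2, a homeobox factor of the developing thalamus, averaged 30.8 ± 35.9 CPM in PO and 6.95 ± 11.3 CPM in VB and was not called (adjusted p = 0.233). When animals entered as a block, Tcf7l2 (0.112) did not pass. In 1 or more of the batch fits no call was made for Foxp1 (0.00928, 0.0663, 0.0197), Tcf7l2 (0.225, 0.347, 0.257) and Nfia (0.14, 0.0419, 0.137). The call depended on single libraries for Tcf7l2 (3 of 11 fits, 0.0642 without VB library 4).

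Of 76 subunit genes of oxidative phosphorylation, 72 had a log2 fold change below 0, with a median of -0.52 against a median of 0.07 over all genes tested. Only 1 of the 76 was called (1.32%, lower in PO), close to the background of 1.05%; DESeq2 called 6, and 20 had an unadjusted p under 0.05. The count was 3 without PO library 3 or without PO library 7, and 0 with the animal as a block. The gene called was Atp5b, the beta subunit of ATP synthase, with 797 to 1434 CPM (median 1019.7) in PO, against 2400.3, 945, 1969 and 1961 CPM in VB (log2 fold change -0.78 ± 0.18 (SE), adjusted p = 0.00389). VB library 2 stood inside the PO range for it. Of 31 RGS and cyclic nucleotide signalling genes, the phosphodiesterase genes Pde4b and Pde1b and the RGS genes Rgs17 and Rgs7 were higher in PO (12.9%), and the calcium-stimulated adenylyl cyclase Adcy1 was lower (3.23%). Adcy1 had 295 to 444 CPM (median 393) in PO, against 756, 924, 836 and 818 CPM in VB (log2 fold change -1.16 ± 0.25 (SE), adjusted p = 0.00125). Rgs17 averaged 546 ± 192 CPM in PO and 205 ± 76.8 CPM in VB (log2 fold change 1.42 ± 0.33 (SE), adjusted p = 0.00329), Pde1b averaged 109 ± 31.5 CPM in PO and 35.4 ± 17.4 CPM in VB (log2 fold change 1.62 ± 0.35 (SE), adjusted p = 0.00122) and Pde4b averaged 85.9 ± 49.7 CPM in PO and 22.8 ± 13.8 CPM in VB (log2 fold change 1.91 ± 0.39 (SE), adjusted p = 0.000511). Among 28 heparan sulfate and extracellular matrix genes, Ndst3, a heparan sulfate sulfotransferase, and Tnr, the net protein tenascin-R, were higher in PO (7.14%) and the neuronal collagen gene Col25a1 was lower (3.57%). Col25a1 averaged 39.97 ± 19.7 CPM in PO and 147 ± 15.3 CPM in VB (log2 fold change -1.88 ± 0.42 (SE), adjusted p = 0.00237), Ndst3 48.5 ± 23.2 CPM in PO and 5.73 ± 8.22 CPM in VB (log2 fold change 3.07 ± 0.86 (SE), adjusted p = 0.0254) and Tnr 594 ± 145 CPM in PO and 317 ± 138 CPM in VB (log2 fold change 0.91 ± 0.27 (SE), adjusted p = 0.0399). None of 16 immediate early genes was called by edgeR or DESeq2, and 0 had an unadjusted p under 0.05. Slc1a2, a glutamate transporter best known in astrocytes, had 566 to 1087 CPM (median 975) in PO, against 647, 665, 234 and 192 CPM in VB (log2 fold change 1.08 ± 0.21 (SE), adjusted p = 0.000359). Slc4a4, the other astrocyte marker tested, had 107 to 417 CPM in PO and 60.5 to 152 CPM in VB and was not called; the part of astrocyte RNA was not tested. Under the animal block, Atp5b (0.246), Rgs7 (0.113), Pde1b (0.0525), Pde4b (0.475), Ndst3 (0.113), Tnr (0.0681) and Slc1a2 (0.113) missed the threshold. Calls not made in every batch fit were those of Atp5b (0.14, 0.465, 0.36), Rgs17 (0.0528, 0.0765, 0.0794), Rgs7 (0.438, 0.556, 0.554), Pde1b (0.0135, 0.169, 0.105), Pde4b (0.0139, 0.535, 0.394), Col25a1 (0.105, 0.0559, 0.0837), Ndst3 (0.23, 0.646, 0.418), Tnr (0.219, 0.374, 0.299) and Slc1a2 (0.00374, 0.341, 0.203). Fits that left out 1 library lost the call of Atp5b (1 of 11 fits, 0.0797 without VB library 1), Rgs7 (8 of 11 fits, 0.12 without PO library 4), Ndst3 (3 of 11 fits, 0.127 without VB library 3) and Tnr (5 of 11 fits, 0.208 without VB library 1). Without 1 library, fold changes shifted by over 1.5 times for Ndst3 (log2 4.74 without VB library 1).

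Neither vesicular glutamate transporter was called. Slc17a6 averaged 893 ± 103 CPM in PO and 996 ± 169 CPM in VB (log2 fold change -0.16 ± 0.18 (SE), adjusted p = 0.777), and Slc17a7 averaged 221 ± 38.3 CPM in PO and 390.5 ± 209 CPM in VB (log2 fold change -0.82 ± 0.79 (SE), adjusted p = 0.717). Hcn2, the main HCN channel of relay neurons, averaged 14.5 ± 12.8 CPM in PO and 21.4 ± 15.02 CPM in VB and was not called either (adjusted p = 0.817).

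VB library 1, a pool of 61 cells from the 2 animals that also gave PO libraries 1 and 2, stood apart from the other VB libraries for several genes that were high in PO. Necab1 was at 122 CPM there and at most 0.400 CPM in VB libraries 2, 3 and 4. Gabra3 was at 34.1 CPM there against at most 2.95 CPM in the others, Grin3a at 45.6 against at most 2.20 CPM, Grm2 at 18.5 against at most 0.102 CPM, and Syt5 at 9.88 against at most 0.0667 CPM. Other genes higher in PO stayed near 0 in that library: Cacna1e at 0.0791 CPM, Calb2 at 0.0791 CPM, and Glra3, Gabrg1 and Chrm1 without a read. The 438 called genes became 386 without it, of which 335 were among the 438.

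The visual pair offers the same contrast of a higher-order with a first-order nucleus, in other animals and other libraries. Of the 438 genes called between PO and VB, 393 had the same sign in LP minus LGd (89.7%, against 58.1% of all genes tested). LP and LGd differed in 599 genes (3.62%). Genes called higher in both pairs numbered 153, which is 57.7% of those higher in PO and 41.5% of those higher in LP. Genes called lower in both numbered 64, or 37.0% of those lower in PO and 27.8% of those lower in LP. Only 2 genes were called in opposite directions. Across the 438 genes the 2 sets of log2 fold changes had a Pearson r of 0.710, and across all genes tested 0.242; these are descriptions over genes, which are not independent. Among the genes named above, Vamp1 averaged 89.3 ± 31.2 CPM in LP and 415 ± 34.1 CPM in LGd, Nefh averaged 115 ± 54.2 CPM in LP and 386 ± 48.5 CPM in LGd and Foxp2 averaged 555 ± 162 CPM in LP and 79.5 ± 8.63 CPM in LGd (SD, n = 9 and 5).

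The test of the difference itself, PO minus VB less LP minus LGd, called 33 genes (0.200% of 16527), 7 with a positive and 26 with a negative difference, and 18 of the 33 were also called between PO and VB. Rorb averaged 529 ± 179 CPM in LP and 503 ± 100.4 CPM in LGd, set beside 380.2 ± 104 CPM in PO and 1360.2 ± 715 CPM in VB (difference -1.91 ± 0.39 log2 units, SE; adjusted p = 0.00677). Foxp1 averaged 72.4 ± 28.3 CPM in LP and 74.8 ± 42.7 CPM in LGd, set beside 156 ± 49.8 CPM in PO and 35.6 ± 14.4 CPM in VB (difference 2.17 ± 0.50, adjusted p = 0.0235). Both transcription factors thus differed between the somatosensory nuclei by more than between the visual ones. Rph3a, a Rab effector of vesicle release, averaged 569 ± 113 CPM in PO and 167 ± 61.8 CPM in VB, and 590.4 ± 134 CPM in LP and 492.7 ± 72.8 CPM in LGd (difference 1.51 ± 0.34, adjusted p = 0.0188). Mgll, the lipase that degrades the endocannabinoid 2-AG, averaged 39.3 ± 21.8 CPM in PO and 3.17 ± 3.60 CPM in VB, and 19.2 ± 6.35 CPM in LP and 34.2 ± 19.3 CPM in LGd (difference 4.46 ± 1.01, adjusted p = 0.0188). Igsf21 and Sntb1, a syntrophin, were near 0 in VB and at 7.30 and 3.79 CPM in LGd (differences 7.71 ± 1.62 and 5.23 ± 1.05, adjusted p = 0.00832 and 0.00434). Fam19a1, almost absent from PO, averaged 9.56 ± 7.32 CPM in LP and 21.8 ± 10.8 CPM in LGd, a smaller difference in the same direction as between PO and VB (difference -8.75 ± 1.93, adjusted p = 0.0146).

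For Sorl1 and Srgap3 the visual pair moved the other way, and for Nxph1 and Adcyap1r1 by more. Sorl1, a sorting receptor, averaged 59.0 ± 25.8 CPM in PO and 203 ± 68.5 CPM in VB, and 159 ± 81.8 CPM in LP and 7.14 ± 9.78 CPM in LGd (difference -6.25 ± 0.80, adjusted p = 1.4e-08). Srgap3, a GTPase-activating protein downstream of Slit and Robo, averaged 89.0 ± 22.3 CPM in PO and 248 ± 73.6 CPM in VB, and 194 ± 61.1 CPM in LP and 76.6 ± 31.8 CPM in LGd (difference -2.82 ± 0.43, adjusted p = 5.49e-06). These were the 2 genes called in opposite directions. Nxph1 and Adcyap1r1 were higher in both higher-order nuclei, but LGd was near 0, at 0.481 and 0.334 CPM, where VB had 23.0 and 10.6 CPM (differences -5.92 ± 0.65 and -4.86 ± 0.97, adjusted p = 4.01e-11 and 0.00379). The difference was fitted in 14 other ways: with RLE factors, no filter, the compared groups alone and each PO or VB library left out. Its call was lost for Foxp1 (3 of 14 fits, at most 0.104 without VB library 2) and Rorb (1 of 14 fits, 0.0987 without VB library 2). It was also lost for Mgll (2 of 14 fits, at most 0.0889 without VB library 4) and Rph3a (2 of 14 fits, at most 0.104 without VB library 4). LP and LGd shared 6 animals, which this test did not block. Lost in at least 1 of the 3 batch fits were the calls of Mgll (0.0193, 0.253, 0.105), Sorl1 (0.394, 0.0522, 0.167) and Srgap3 (0.0419, 0.0654, 0.0459). Removal of 1 library took away the call of Sorl1 (10 of 11 fits, 0.162 without VB library 2).

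**Figure D5:**
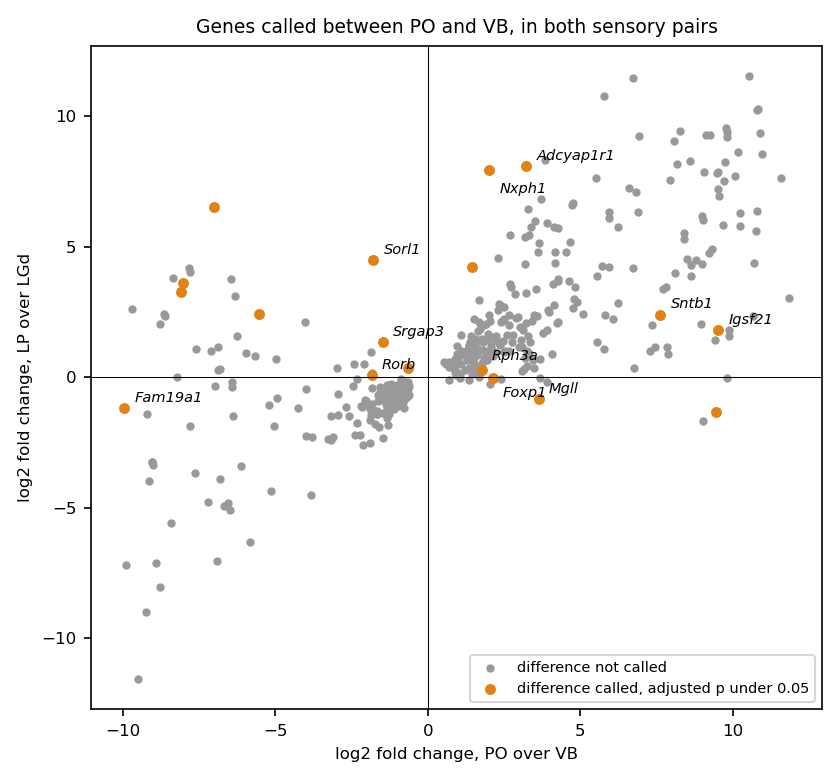
Each point is 1 of the 438 genes called between PO and VB, with the log2 fold change of PO over VB across and that of LP over LGd up. The 18 genes for which the difference between the 2 pairs was called are orange; Sorl1 and Srgap3 lie left of 0 across and above 0 up.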

How the data were processed

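Bulk RNA-seq libraries of hand-picked, DiI-labelled thalamic neurons were compared. The deposited table gives raw counts of reads per gene, which the authors made with cutadapt 1.16, STAR 2.5.3a and featureCounts 1.52 on mm10, per the submitters' processing notes. Amplification by the Ovation kit, per the labels' protocols, does not mark strand, so reads of overlapping or antisense genes cannot be told apart. The deposited table of library metadata gave animals, cell numbers, recorded ages (no unit is given) and amplification batch, which is a date of amplification per the file headers.

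Counts of 16527 of 16538 genes passed edgeR's filterByExpr (minimum count 10, minimum total 15) and were fitted with edgeR 4.0.16 in R 4.3.3 (TMM scaling, quasi-likelihood F test, 120 libraries in 24 groups, without covariates). Genes with a Benjamini-Hochberg adjusted p under 0.05 were called. CPM are counts scaled to the TMM-adjusted library size; the standard error is the log2 fold change divided by the square root of F. Where a nucleus had no reads, 3 counts summed over its libraries stood in for it and the fold is a bound; at 1 to 3 counts, the ratio is given with an exact 95% interval for counting error alone. The fit was tested on simulated counts with known changes. These counts were drawn independently for each library, without batches, shared animals or outlying libraries. They cannot show how such features affect the calls. Alternatives were RLE factors, DESeq2 1.42.0, no filter, the compared groups alone, a replicate block, an animal block, amplification batch as a term, a threshold of 0.01 and each library left out; fits within the shared batch were chosen after seeing the data.

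The named genes were the 12 largest called changes in each direction (at least 10 CPM in the higher nucleus, ranges apart), up to 3 called members per list and direction (at least 5 CPM), 5 genes per direction of the difference from LP and LGd, the markers and a few fixed genes; other called members of a list are named where its count is given. A few genes are not reported here. The members and the 30 lists were chosen with earlier results of these data known. Replicate numbers do not pair the libraries, since only number 1 has an animal in common. No 2 libraries agreed within sampling noise (chi-square per degree of freedom at least 75.8), and p-values reflect the spread between pools that partly share animals.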

Additional observations from a re-analysis of the deposited data

Results flagged for a closer look

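Among the named genes, a library stood apart from the others of its nucleus in 44 of 214 groups of libraries, by Dixon's 95% criterion. For normally distributed values, chance gives about 1 in 20. The CPM were not tested for this, so the 44 of 214 cannot be set against that rate. In 5 of the 44 the other libraries had no read, so that any read meets the criterion and the chance rate does not apply. VB library 1 gave 15 of these values and VB library 2 gave 10. Each value is set against the lowest and highest of the other libraries of that nucleus.

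PO library 1 had Chrm1 at 47.7 CPM against 3.13 to 20.2, Lrrc55 at 5.204 CPM against 0 to 0.966 and Grin3a at 172 CPM against 102 to 128 CPM. There were also Caln1 at 46.2 CPM against 0 to 1.74 CPM. PO library 2 had Cdkn1a at 3.20 CPM against 0 to 0.223, Kcnk12 at 2.78 CPM against 0 to 0.698 and Grm2 at 107 CPM against 39.4 to 63.2 CPM. There were also Doc2b at 22.5 CPM against 0.0743 to 8.22, Syt5 at 168 CPM against 19.0 to 74.6 and Gbx2 at 106 CPM against 5.43 to 40.6 CPM. PO library 3 had BC035947 at 6.66 CPM against 0 to 2.30 CPM. PO library 4 had Kcnj2 at 147 CPM against 0.336 to 21.2, Lrrtm4 at 119.5 CPM against 21.9 to 63.2 and Tcf7l2 at 2893 CPM against 1841 to 2291 CPM. PO library 5 had Fam19a1 at 0.0743 CPM against 0 CPM. PO library 6 had Rmst at 42.8 CPM against 1.78 to 19.3 and Adcyap1r1 at 205 CPM against 45.9 to 105 CPM. PO library 7 had Scn4b at 36.5 CPM against 2.28 to 14.1 CPM.

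VB library 1 had Prph at 0.0791 CPM against 0, Gpr26 at 0.0791 CPM against 0 and Kcnq5 at 2.29 CPM against 0.0667 to 0.102 CPM. There were also Kcnt2 at 8.85 CPM against 0 to 0.102, Gabra3 at 34.1 CPM against 0.432 to 2.95 and Grin3a at 45.6 CPM against 0.102 to 2.20 CPM. The same library had Grm2 at 18.5 CPM against 0 to 0.102, Doc2b at 0.237 CPM against 0 and Syt5 at 9.88 CPM against 0 to 0.0667 CPM. Further values were Stx1a at 5.77 CPM against 0 to 0.407, Igsf21 at 0.0791 CPM against 0 and Epha6 at 37.5 CPM against 9.16 to 10.1 CPM. It also had Gbx2 at 23.8 CPM against 0.605 to 2.80, Calb1 at 116 CPM against 9.88 to 27.3 and Necab1 at 122 CPM against 0.173 to 0.400 CPM. VB library 2 had Gcnt4 at 11.2 CPM against 39.4 to 44.0, Kcnab2 at 44.0 CPM against 218 to 251 and Scn1a at 1734 CPM against 1172 to 1240.4 CPM. There were also Grik2 at 386 CPM against 138 to 176, Slc24a2 at 9728 CPM against 4929.5 to 5711 and Sema5a at 1469 CPM against 748 to 827 CPM. The same library had Foxp2 at 238 CPM against 56.7 to 78.8, Tcf7l2 at 1671 CPM against 1168 to 1201 and Ppargc1a at 1133 CPM against 578 to 662 CPM. Further values were Rorb at 2422 CPM against 913 to 1137 CPM. VB library 3 had Kcnj2 at 1.02 CPM against 0 to 0.158 CPM.

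The contrast of a higher-order with a first-order nucleus differed between the somatosensory and the visual pair for 11 named genes, by edgeR's test of PO minus VB less LP minus LGd. On the log2 scale the difference was Igsf21 7.71, Foxp1 2.17, Sntb1 5.23, Mgll 4.46 and Rph3a 1.51 in the positive direction and Fam19a1 -8.75, Adcyap1r1 -4.86, Nxph1 -5.92, Rorb -1.91, Sorl1 -6.25 and Srgap3 -2.82 in the negative one.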

How the results depend on the processing

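Of the alternatives to the 438 called genes (265 higher, 173 lower in PO), RLE factors gave 448, no filter 444 and the compared groups alone 331. DESeq2 called 1209 (884 higher, 325 lower), and an adjusted p under 0.01 left 237 (160 higher, 77 lower). The animal block gave 249 (148 higher, 101 lower) and amplification batch as a term 130 (92 higher, 38 lower). The shared batch fitted alone gave 104 (56 higher, 48 lower) and PO of the shared batch 200 (159 higher, 41 lower). These 4 fits rest on fewer libraries or degrees of freedom. With the replicate block, 185 genes were called (107 higher, 78 lower). Deviations of same-numbered libraries had correlations of -0.0290 to 0.0112, and those of PO and VB libraries that share an animal -0.104 to 0.0155. These correlations therefore cannot tell whether the number pairs the libraries. By the recorded animals it does not, as only number 1 has an animal in common. Leaving out 1 library gave 309 to 410 called genes, 178 to 260 higher and 109 to 150 lower, with 109 lower without VB library 2. The difference from LP and LGd called 28 to 40 genes without 1 library, against 33; DESeq2, the blocks and the batch term were not run for it. No named gene changed direction in any of these fits.

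Of the library measures, genes detected (PO minus VB) ranged from -138 to 331 and the percent of mapped reads counted from -0.369 to 1.83 when 1 library was left out, and summed reticular nucleus and zona incerta markers from -0.0541 to 3.12 CPM. Depth limits the genes with no or few reads in 1 nucleus, and 4 VB libraries, 1 of 14 cells, limit the precision of every VB mean.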
